A study of Homo sapiens with 2 samples.

Results

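The insulin-like growth factor (IGF) genes described here are 10 genes in 3 classes: the receptors IGF1R, INSR and IGF2R, the secreted binding proteins IGFBP2, IGFBP3, IGFBP4, IGFBP6 and IGFBP7, and the receptor adaptors IRS1 and IRS2. They were chosen by name, with earlier results of these data known but by no rule on a measured value. Read were all 26 probe sets that carry 1 of these symbols alone, among 41097 probe sets with 1 symbol and 19775 genes. HCC4006ER is an erlotinib-resistant line derived from HCC4006 by long culture in rising erlotinib, labelled with an EMT phenotype and kept as a bulk population rather than as 1 clone. HCC4006 is the parental, erlotinib-sensitive human NSCLC line. Both carry a deletion in exon 19 of EGFR, and neither received further treatment during the 48 hours of culture in medium with 10% serum before RNA was taken. RNA of 3 preparations per line was mixed and hybridized to 1 Affymetrix HG-U133 array, so that every value below is a single reading without replicate error and no test was possible.

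IGF1 and IGF2 activate the tyrosine kinase IGF1R, and insulin activates its close relative INSR. Both kinases phosphorylate IRS1 and IRS2, which recruit PI3K and thereby feed AKT and mTOR. IGF2R has no kinase domain and carries IGF2 and mannose 6-phosphate-tagged enzymes to lysosomes. The IGFBPs bind IGFs outside the cell and either hold them away from the receptor or carry them to it. Signaling through IGF1R is a known bypass route of resistance to EGFR inhibitors, and the arrays were made to find genes and pathways that differ in HCC4006ER cells.

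The signals were MAS5 intensities on a linear scale, with medians of 57.7 on the array labelled HCC4006ER and 63.4 on the array labelled HCC4006. A signal was taken as above background when it reached the 95th percentile of 127 probe sets of olfactory and bitter taste receptor genes, which was 91.6 on the array labelled HCC4006ER and 96.2 on the array labelled HCC4006. Where only 1 of the 2 signals reached that level, the other was raised to it and the fold is given as at least that size. Where neither did, no fold is given. Folds are those of the array labelled HCC4006ER over the array labelled HCC4006, and 1.5-fold, the threshold of the study, was used to count genes. The log2 fold of probe sets of the same gene varied with a pooled SD of 0.27 over 5264 genes, a measure of disagreement between probe sets that leaves out variation between cultures and arrays.

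The arrays did not carry all the features of their labels. The 8 epithelial markers were above background on both arrays, and 1 of them, the splicing regulator ESRP1, was lower past 1.5-fold (1.60-fold), while E-cadherin (CDH1) had a log2 fold of 0.08. ZEB1, a repressor of epithelial genes, was under background on both, while 6 of 7 mesenchymal markers were higher past 1.5-fold on the array labelled HCC4006ER. ERBB3 (Her3) read 1305 on the array labelled HCC4006ER and 1198 on the array labelled HCC4006, a log2 fold of 0.12. For HCC4006ER cells the study reported higher ZEB1 and loss of E-cadherin and Her3 at the mRNA level. The signals read here did not show these differences, and the reason was not tested. Of 15 fibroblast markers, 1 was above background on the array labelled HCC4006ER (summed signal 1290) and 2 on the array labelled HCC4006 (summed signal 1173), with LUM, DCN and COL3A1 under background on both. Endothelial markers reached background in 1 of 6 genes on each array. Leukocyte markers did so in 1 of 5 genes on the array labelled HCC4006ER and in 2 of 5 on the array labelled HCC4006. Of 5 lung lineage markers, 2 were above background on each array, and NKX2-1, the defining lung transcription factor, was under background on both.

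Among the 10 genes, IGFBP6 alone was higher past 1.5-fold on the array labelled HCC4006ER, and IGFBP2 alone was lower. The other 8 lay within 1.5-fold when the brightest probe set by mean log2 signal stood for the gene. Past 1.5-fold, 7.99% of the 11896 genes above background on at least 1 array were higher and 11.2% were lower, so that 1 of 10 in each direction is near the background and is not a result about these genes as a group. The share of lower genes among all genes past 1.5-fold was 58.3%, and it was 37.4% after scaling to equal medians, which moved every log2 fold up by 0.14. The median log2 fold of the 10 genes was 0.16, beside -0.04 over all genes above background.

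**Figure D1:**
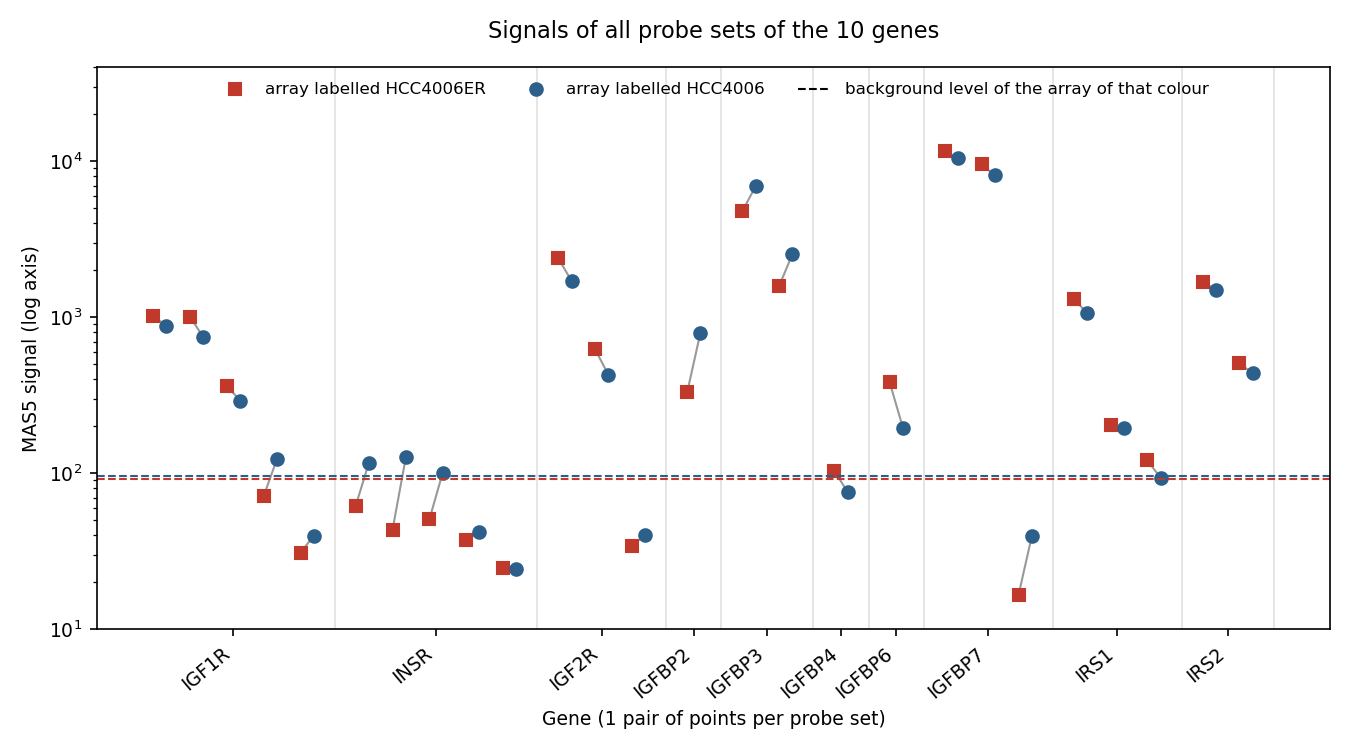
MAS5 signal (log axis) of all 26 probe sets of the 10 genes, with squares for the array labelled HCC4006ER and circles for the array labelled HCC4006, and 1 joined pair per probe set. Dashed lines stand at the background, 91.6 and 96.2; IGFBP2 and both bright IGFBP3 pairs slope toward a lower HCC4006ER signal, whereas IGFBP6 and the bright IGF2R pairs slope the other way.

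Of the 26 probe sets, 15 were above background on both arrays, 6 on 1 array only and 5 on neither. Of the 15, 12 were higher on the array labelled HCC4006ER and 3 were lower at any size, where 48.8% of the 19613 probe sets detected on each array were higher and 51.2% were lower. The 3 lower probe sets belonged to IGFBP2 and IGFBP3. Past 1.5-fold, 1 probe set was higher and 2 were lower among the 21 above background on at least 1 array, where 9.25% of all such probe sets were higher and 10.1% were lower.

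IGF1R, the signaling receptor of the family, was present on both arrays and differed little. Its brightest probe set (225330_at) read 1025 on the array labelled HCC4006ER and 878 on the array labelled HCC4006, a log2 fold of 0.22. A second probe set (203627_at) read 1008 on the array labelled HCC4006ER and 747 on the array labelled HCC4006, a log2 fold of 0.43, and another (203628_at) read 363 on the array labelled HCC4006ER and 293 on the array labelled HCC4006, a log2 fold of 0.31. These 3, the only IGF1R probe sets detected on both arrays, were thus higher on the array labelled HCC4006ER, by 1.17-fold to 1.35-fold, all within 1.5-fold. The probe set 243358_at went the other way, at 71.4 on the array labelled HCC4006ER, under background, and 123 on the array labelled HCC4006, at least 1.35-fold lower. The fifth (208441_at) was under background on both arrays.

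INSR, the insulin receptor, was close to background. Its probe set 226450_at read 62.1 on the array labelled HCC4006ER and 117 on the array labelled HCC4006, so that it was at least 1.28-fold lower. The probe set 213792_s_at read 43.6 on the array labelled HCC4006ER against 126 on the array labelled HCC4006 (at least 1.38-fold lower), and 226216_at read 50.7 on the array labelled HCC4006ER against 101 on the array labelled HCC4006 (at least 1.10-fold lower). INSR therefore reached the background level on the array labelled HCC4006 in 3 of 5 probe sets and on the array labelled HCC4006ER in 0 of 5. The remaining INSR probe sets were under background on both arrays, 226212_s_at at 37.3 on the array labelled HCC4006ER and 42.0 on the array labelled HCC4006, and 207851_s_at at 24.7 on the array labelled HCC4006ER and 24.5 on the array labelled HCC4006. By the measured ratio, with no floor, the log2 fold of 226450_at was -0.92, past 1.5-fold. By that ratio 23% of all genes were lower past 1.5-fold, and 48.8% of the 127 olfactory and taste receptor probe sets passed it in either direction.

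IGF2R, the clearance receptor, was higher in both of its probe sets above background. The signal of 201393_s_at was 2394 on the array labelled HCC4006ER and 1713 on the array labelled HCC4006 (log2 fold 0.48), and that of 201392_s_at was 623 on the array labelled HCC4006ER and 430 on the array labelled HCC4006 (log2 fold 0.54). Both lay just inside 1.5-fold, and 11.2% of all genes above background had a higher log2 fold than the 0.48 of IGF2R. After scaling to equal medians, its log2 fold was 0.62 and past 1.5-fold. Its probe set 1569052_at was under background on both arrays.

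Of the ligands, neither insulin nor IGF1 reached background. INS read 2.17 on the array labelled HCC4006ER and 3.07 on the array labelled HCC4006. The brightest of the 5 IGF1 probe sets read 47.3 on the array labelled HCC4006ER and 40.1 on the array labelled HCC4006. IGF2 had no probe set with its symbol alone and was not analysed here. INSRR, an orphan relative of the insulin receptor, IRS4, an adaptor of restricted expression, and IGFALS, the subunit that stabilizes circulating IGF complexes, were also under background on both arrays.

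The binding proteins showed the largest differences among the 10 genes, in both directions. IGFBP2, which binds IGF2 with preference and carries an integrin-binding motif, had 1 probe set (202718_at), which read 330 on the array labelled HCC4006ER and 795 on the array labelled HCC4006. It was 2.41-fold lower (log2 fold -1.27), and 1.89% of all genes above background had a lower log2 fold. IGFBP6, a binding protein with marked preference for IGF2, also had 1 probe set (203851_at), which read 383 on the array labelled HCC4006ER and 196 on the array labelled HCC4006. It was 1.95-fold higher (log2 fold 0.97), and 2.60% of all genes above background had a higher log2 fold. Neither gene had a second probe set against which the fold could be checked. In such bulk RNA, fewer cells that express a gene and less of its RNA per cell cannot be told apart.

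IGFBP3, the main IGF carrier of serum and a gene induced by p53 and TGF-β in many cells, was lower in both of its probe sets. The signal of 210095_s_at was 4796 on the array labelled HCC4006ER and 6929 on the array labelled HCC4006, and that of 212143_s_at was 1591 on the array labelled HCC4006ER and 2545 on the array labelled HCC4006. The brighter probe set was 1.44-fold lower and the other lower by a log2 fold of -0.68, past 1.5-fold, so that IGFBP3 lies on either side of 1.5-fold depending on the probe set. IGFBP7, a binding protein with low affinity for IGFs that is also deposited in vessel walls and matrix, was bright on both arrays and nearly equal. Its probe set 201162_at read 11591 on the array labelled HCC4006ER and 10487 on the array labelled HCC4006 (log2 fold 0.14), and 201163_s_at read 9560 on the array labelled HCC4006ER and 8114 on the array labelled HCC4006 (log2 fold 0.24). Both log2 folds are under the pooled probe set SD of 0.27, and 213910_at was under background on both arrays.

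IGFBP4, an inhibitory binding protein cleaved by the protease PAPPA, was barely detected. Its 1 probe set (201508_at) read 104 on the array labelled HCC4006ER, above background, and 75.7 on the array labelled HCC4006, under it, which makes it at least 1.08-fold higher. Of 8 further members of the IGF axis measured, 6 were under background on both arrays, 1 was higher past 1.5-fold and 0 were lower. Of all genes above background, 7.99% were higher and 11.2% were lower. IGFBP1, a binding protein regulated by insulin in liver, read 155 on the array labelled HCC4006ER and 196 on the array labelled HCC4006 (log2 fold -0.34), and IGFBP5 was under background on both arrays in its 6 probe sets. IGFBPL1, a structurally related secreted protein, read 294 on the array labelled HCC4006ER and 183 on the array labelled HCC4006, 1.61-fold higher.

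**Figure D2:**
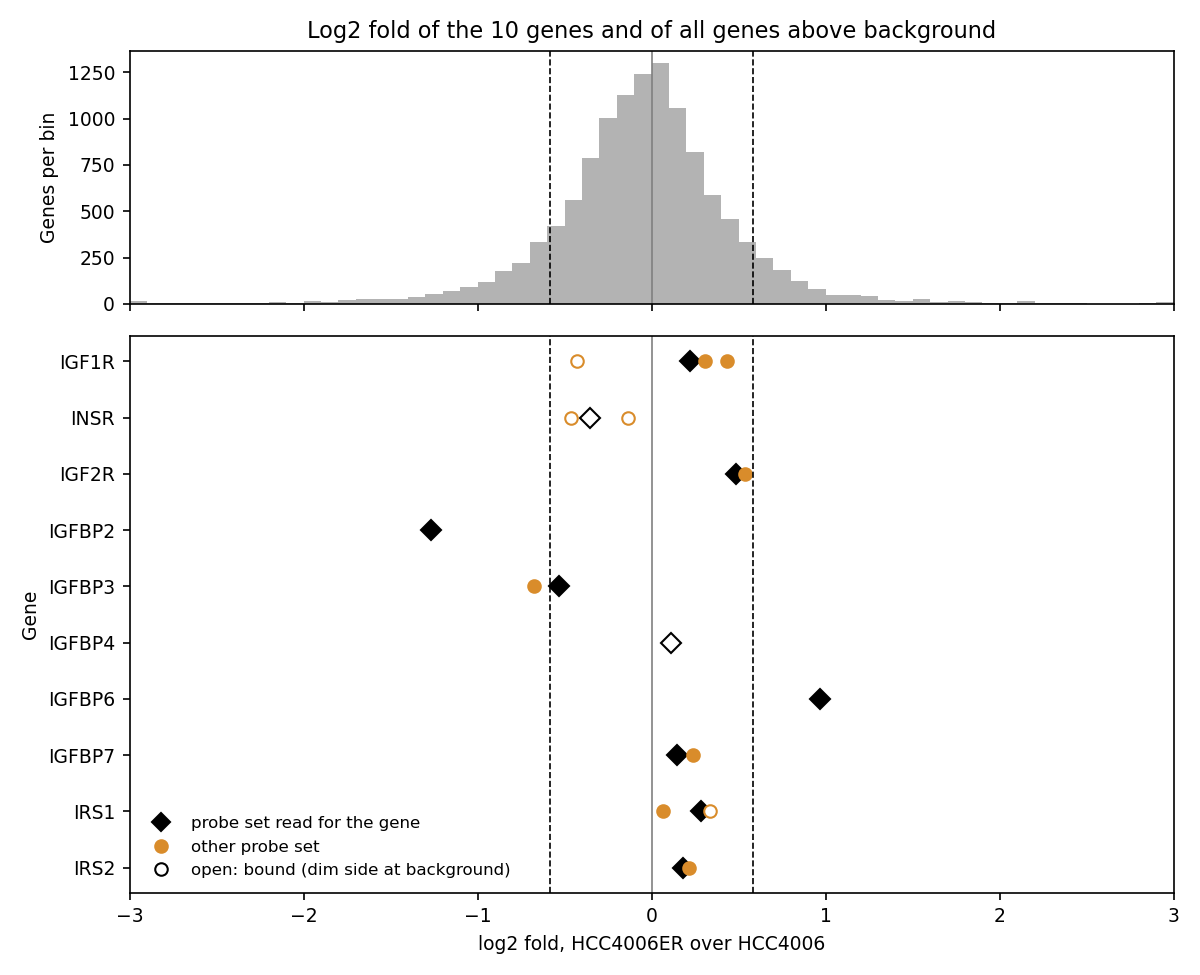
Log2 fold of the array labelled HCC4006ER over the array labelled HCC4006 for each probe set of the 10 genes (lower panel: diamonds, probe set read for the gene; circles, other probe sets; open symbols, bounds) under the histogram of the 11896 genes above background in bins of 0.1 (upper panel, end bins hold all values past the axis). Dashed lines mark 1.5-fold; IGFBP2 at -1.27 and IGFBP6 at 0.97 are the only diamonds outside them.

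Upstream sequences are given for IGFBP2, IGFBP6, IGFBP3 and IGF2R, chosen after their values were seen, because these 4 differed most among the genes above background on both arrays and did so in opposite directions. They are the 250 bases before the transcription start in the RefSeq promoter table of the build GRCh38.p14, read 5′ to 3′ on the gene's strand. Capitals mark CACCTG or its complement CAGGTG, the E-box letters bound by ZEB and SNAI repressors, CACGTG, the E-box of MYC and related factors, and GTAAACA, a FOXO site. IGFBP2 has 3 annotated starts, of which the first (chr2:216632578-216632827, plus strand) is given. The others are IGFBP6 (chr12:53097417-53097666, plus strand), IGFBP3 (chr7:45921273-45921522, minus strand) and IGF2R (chr6:159968832-159969081, plus strand).
IGFBP2: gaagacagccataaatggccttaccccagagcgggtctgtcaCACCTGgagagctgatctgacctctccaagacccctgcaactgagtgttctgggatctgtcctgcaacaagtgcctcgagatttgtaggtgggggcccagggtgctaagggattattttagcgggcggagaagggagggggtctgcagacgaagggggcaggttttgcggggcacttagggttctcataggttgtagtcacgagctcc
IGFBP6: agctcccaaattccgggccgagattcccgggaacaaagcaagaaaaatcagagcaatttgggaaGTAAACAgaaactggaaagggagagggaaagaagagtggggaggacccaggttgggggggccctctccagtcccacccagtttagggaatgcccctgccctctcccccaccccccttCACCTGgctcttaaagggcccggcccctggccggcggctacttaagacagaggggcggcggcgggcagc
IGFBP3: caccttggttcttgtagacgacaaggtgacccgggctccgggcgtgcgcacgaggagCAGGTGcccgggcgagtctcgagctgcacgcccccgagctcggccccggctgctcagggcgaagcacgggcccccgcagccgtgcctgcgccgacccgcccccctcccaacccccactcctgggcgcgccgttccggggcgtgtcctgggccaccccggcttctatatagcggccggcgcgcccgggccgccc
IGF2R: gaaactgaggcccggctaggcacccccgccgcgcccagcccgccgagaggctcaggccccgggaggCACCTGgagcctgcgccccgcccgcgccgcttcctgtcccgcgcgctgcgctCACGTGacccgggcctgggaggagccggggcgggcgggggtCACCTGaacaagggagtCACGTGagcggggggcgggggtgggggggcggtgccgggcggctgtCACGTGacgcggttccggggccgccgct

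Of the 10 genes, 9 matched the promoter table, with 11 windows; IGFBP7 did not. CACCTG, searched on both strands, stood once before IGFBP6, IGFBP3 and the first start of IGFBP2 and 2 times before IGF2R, and in no window of IGF1R, INSR, IGFBP4, IRS1 and IRS2. The other annotated starts of IGFBP2 did not hold CACCTG. It was present in 17.5% of all 35116 windows of that length. The 4 genes that hold it were 2 with a higher signal (IGFBP6, IGF2R) and 2 with a lower signal (IGFBP2, IGFBP3) on the array labelled HCC4006ER. CACGTG stood 3 times before IGF2R and before none of the other genes (6.34% of all windows), and GTAAACA stood once, before IGFBP6 (2.98%). CAAAACA, the core of the insulin response element, was found before IRS2 (4.30% of all windows), and TATAAA before IGFBP4 (10.7%). The GC box GGGCGG was found before all 9 genes (42.6% of all windows), though not before every annotated start of IGFBP2. Overlapping matches before INSR were counted separately. The shares are of windows, whereas a gene counts when any of its windows holds the letters. These matches describe letters and not binding.

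Proteases that cleave the binding proteins, their inhibitors, and the proprotein convertases FURIN and PCSK6 were listed as a separate group of 11 genes. Of these, 9 were above background. Past 1.5-fold, 1 was higher and 3 were lower, beside 7.99% and 11.2% of all genes. The median log2 fold was -0.55, beside -0.04 over all genes. HTRA1, a secreted serine protease that cleaves IGFBPs, read 338 on the array labelled HCC4006ER and 1147 on the array labelled HCC4006 and was 3.39-fold lower. ADAM28, a metalloprotease that cleaves IGFBP3, was 1.64-fold lower, and FURIN, the proprotein convertase that matures IGF1R and INSR, was 1.56-fold lower. STC2, a stanniocalcin that inhibits PAPPA, read 2091 on the array labelled HCC4006ER and 1334 on the array labelled HCC4006 and was 1.57-fold higher. PAPPA itself was under background on both arrays.

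IRS1 and IRS2, which couple both kinases to PI3K, were slightly higher on the array labelled HCC4006ER in all of their probe sets above background on both arrays. IRS1 read 1304 on the array labelled HCC4006ER and 1071 on the array labelled HCC4006 in 204686_at, a log2 fold of 0.28, and 205 on the array labelled HCC4006ER and 196 on the array labelled HCC4006 in 242979_at, a log2 fold of 0.06. In 238933_at it read 121 on the array labelled HCC4006ER and 93.3 on the array labelled HCC4006, under background there, at least 1.26-fold higher. IRS2 read 1696 on the array labelled HCC4006ER and 1496 on the array labelled HCC4006 in 209185_s_at (log2 fold 0.18), and 507 on the array labelled HCC4006ER and 437 on the array labelled HCC4006 in 209184_s_at (log2 fold 0.22). No IRS probe set reached 1.5-fold, and the log2 fold of IRS2 is under that pooled SD in both probe sets.

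Other adaptors and phosphatases that act at the receptors differed in both directions. Among the 23 detected, 3 were past 1.5-fold upward, 1 downward and 19 lay within it, beside 7.99% and 11.2% of all genes, with a median log2 fold of 0.10. Some of the 19 passed 1.5-fold in another probe set: PTPRF, a receptor-type phosphatase, had log2 folds of 0.57, 1.02 and 0.92 in its detected probe sets, and SH2B1, an adaptor of the insulin receptor, had -0.27 and -1.03. SOCS2, a feedback inhibitor of growth hormone and IGF signaling, read 2154 on the array labelled HCC4006ER and 1094 on the array labelled HCC4006 in its brightest probe set (1.97-fold higher), and 668 on the array labelled HCC4006ER and 333 on the array labelled HCC4006 in a second. SOCS6 was 1.53-fold higher and PTPN1, the phosphatase that dephosphorylates INSR and IGF1R, was 1.51-fold higher. SHC1, which links both receptors to RAS, read 3354 on the array labelled HCC4006ER and 5195 on the array labelled HCC4006 and was 1.55-fold lower.

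Genes of PI3K, AKT and FOXO differed in both directions. Among the 17 detected, 2 exceeded 1.5-fold upward and 3 downward, beside 7.99% and 11.2% of all genes, with a median log2 fold of -0.16. PIK3CD, a catalytic subunit best known from leukocytes, read 647 on the array labelled HCC4006ER and 217 on the array labelled HCC4006 and was 2.99-fold higher, in 1 of 2 probe sets, the other being under background. PIK3R3, a regulatory subunit that binds phosphorylated IRS proteins, read 334 on the array labelled HCC4006ER and 874 on the array labelled HCC4006 and was 2.62-fold lower. TRIB3, an inhibitor of AKT induced by stress, was 1.64-fold higher, while AKT1 was 1.59-fold lower in its 1 probe set. PIK3CA and PIK3R2 had no probe set with 1 symbol and were not analysed here.

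**Figure D3:**
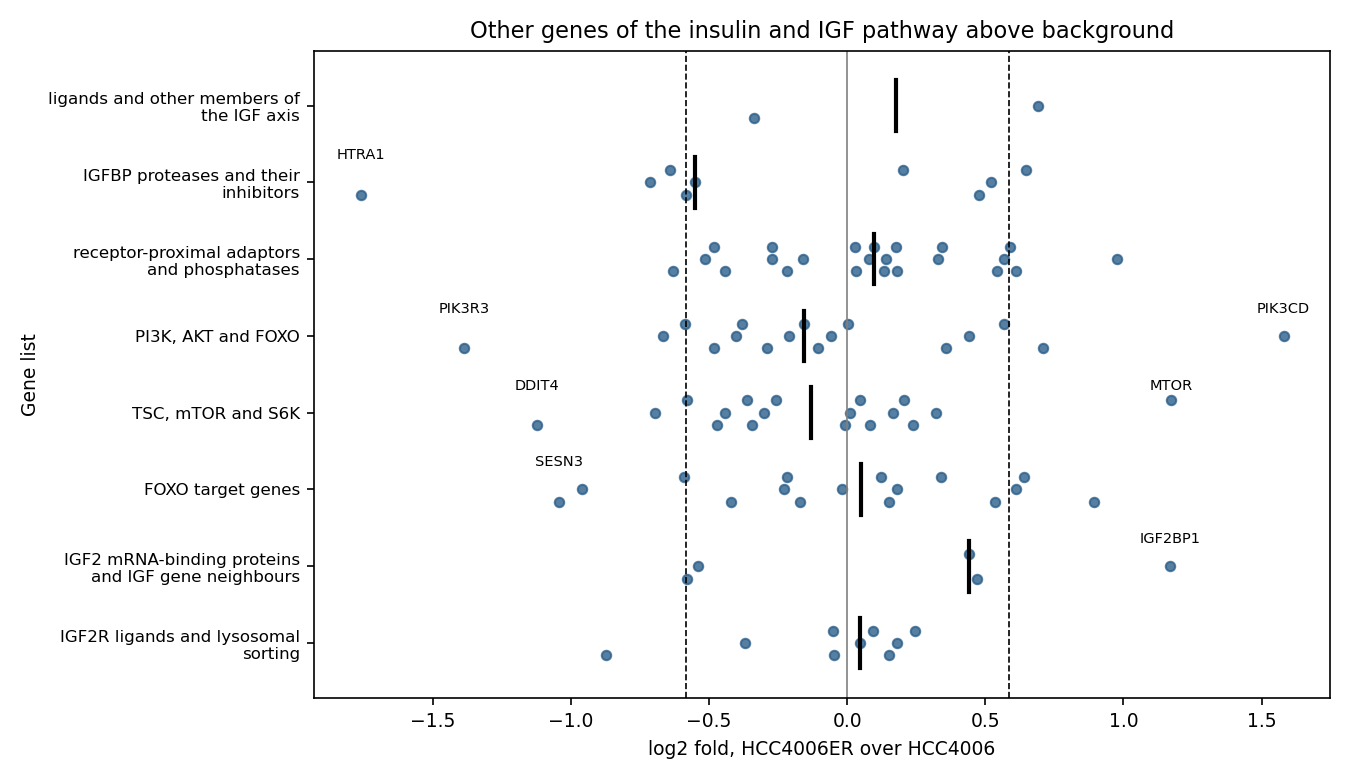
Log2 fold of the array labelled HCC4006ER over the array labelled HCC4006 for the genes above background of 8 lists around the 10 genes (1 point per gene; black bar, median of the list; dashed lines, 1.5-fold; names are given past 2-fold, and GRB10 is in 2 lists). Points lie on both sides of 0 in each list. The medians run from -0.55 for the list of IGFBP proteases, inhibitors and convertases to 0.44 for the IGF2 mRNA-binding proteins and gene neighbours.

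The IGF2 mRNA-binding proteins and neighbours of IGF genes held 5 detected genes, of which 1 was higher past 1.5-fold and 0 were lower. Over all genes above background these shares were 7.99% and 11.2%. IGF2BP1, an oncofetal member, read 221 on the array labelled HCC4006ER and 98.5 on the array labelled HCC4006, where it was barely above background, and was 2.25-fold higher. IGF2BP2 had a log2 fold of 0.44 and IGF2BP3 of -0.54, both within 1.5-fold, but a dimmer probe set of IGF2BP2 had -0.83 and 1 of IGF2BP3 had -0.87. Among 9 genes above background that share ligands or the sorting route with IGF2R, none was higher past 1.5-fold and 1 was lower. That gene, NAGPA, which uncovers the mannose 6-phosphate tag, read 285 on the array labelled HCC4006ER and 522 on the array labelled HCC4006 and was 1.83-fold lower. M6PR, the second mannose 6-phosphate receptor, had a log2 fold of 0.25.

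Over the 8 lists together, 12 of 98 detected genes (12.2%) exceeded 1.5-fold upward and 13 (13.3%) downward, beside 7.99% and 11.2% of all genes. No test was run on these shares, and they are not read as a result about the pathway. After scaling to equal medians, 19 genes of the lists were higher past 1.5-fold and 6 were lower.

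**Figure D4:**
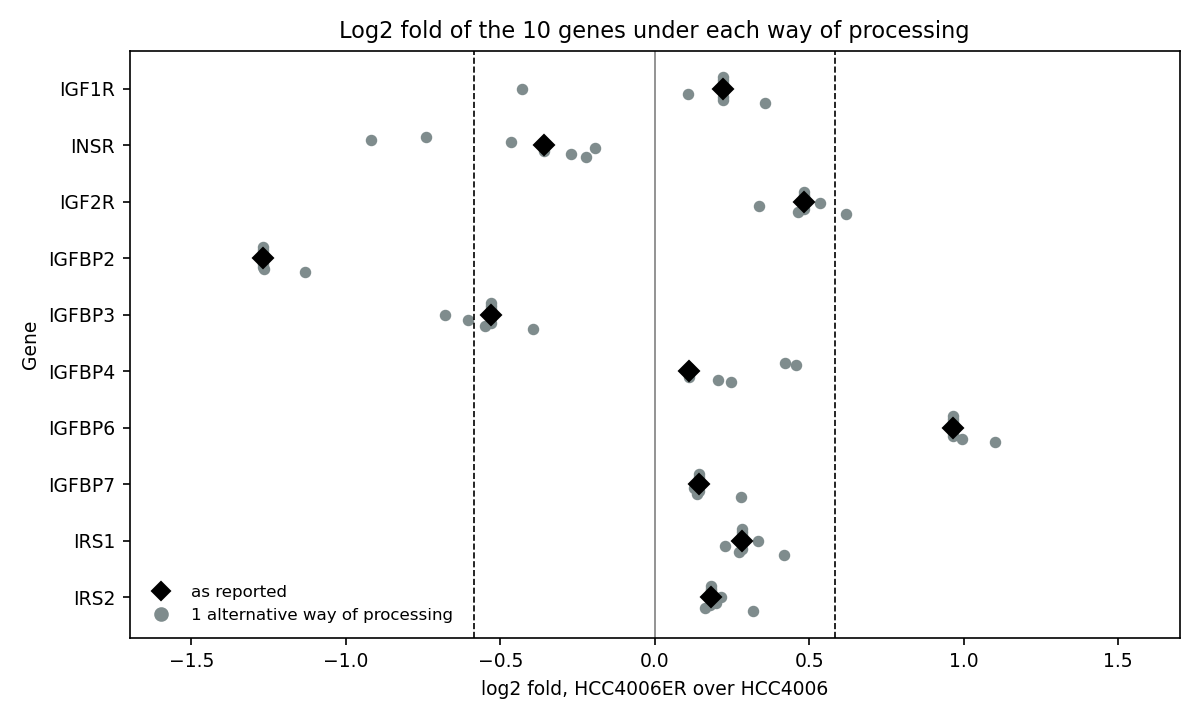
Log2 fold of the array labelled HCC4006ER over the array labelled HCC4006 for the 10 genes as reported (black diamonds) and under each other way of processing that gave a fold (grey points). IGFBP2 stays between -1.27 and -1.13 and IGFBP6 between 0.97 and 1.10, whereas INSR spreads from -0.92 to -0.19 and IGF1R has a single point below 0, at -0.43.

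The folds of IGFBP2 and IGFBP6 moved little with the scaling, as the plot of alternatives shows. With 1 probe set each, above background on both arrays, they could not move with the choice of probe set or of background. INSR, near background, and IGF1R moved most, the latter through 243358_at, which was under background on the array labelled HCC4006ER.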

How the data were processed

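HCC4006ER and HCC4006 cells had 1 Affymetrix HG-U133 array each, made from 3 RNA preparations mixed per line; the sample labels give 100 ng of total RNA for labelling, whereas the design text gives 10 μg per line for the array. The authors deposited 1 intensity per probe set, a MAS5 signal on a linear scale for 54675 probe sets, and the submitters' processing notes also name GCOS 1.4. The deposited signals had been scaled by the authors, so that the mean after taking away 2% at each end was 500.1 on both arrays. Detection calls were not used here, and the genome build behind the signals is not given in the sources used here.

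Symbols came from the platform annotation, in which 41097 probe sets had 1 symbol. These alone were used (1801 with several symbols and 11777 without an entry were left out), updated through their gene identifiers to RefSeq symbols (41043 matched). A gene was read from its probe set of highest mean log2 signal. The 10 genes and all lists were chosen with earlier results of these data known. All probe sets of the 10 genes are named, and of each list up to 4 genes past 1.5-fold. INPP4B, the remaining lower gene of the PI3K, AKT and FOXO list, was 1.501-fold lower and is not described above. IGFBP1, IGFBP5, PTPRF, SH2B1, ERBB3 and other genes not past 1.5-fold were named after their values were seen. With 1 array per line no p-value was computed, and precision is limited by having 2 arrays in all. The calculation was tested on simulated data. Alternatives were other scalings, other choices of probe set, no background floor, other background levels and a 2-fold threshold. Python 3.11.15, numpy 2.4.6, pandas 2.3.3 and matplotlib 3.10.9 were used.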

Additional observations from a re-analysis of the deposited data

How the results depend on the processing

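No paired analysis was possible because each cell line had 1 array, and no array could be left out. IGFBP2 stayed lower and IGFBP6 stayed higher past 1.5-fold under all 10 alternatives that give a log2 fold. The range was -1.27 to -1.13 for IGFBP2 and 0.97 to 1.10 for IGFBP6. Each has 1 probe set, above background on both arrays under every background level tried. Choices of probe set and of background therefore could not alter these folds, and only the other scalings could. At a 2-fold threshold IGFBP6 no longer passed. After scaling to equal medians, 2 of the 10 genes were higher past 1.5-fold (IGFBP6 and IGF2R), 3 of their probe sets were higher and 1 was lower, and of the other pathway genes 19 were higher and 6 were lower. At the 2-fold threshold 0 of the 10 genes and 0 of their probe sets were higher, 1 probe set was lower, and 3 other pathway genes were higher and 4 lower. The number of lower genes was 2 with the log2 fold averaged over probe sets and with the most different probe set, where IGFBP3 was added, and 2 with the measured ratio and with a background at the 90th percentile, where INSR was added. Under the last of these 5 probe sets were lower and with the measured ratio 7 were. With the most different probe set IGF1R had a log2 fold of -0.43, from a probe set under background on the array labelled HCC4006ER. None of the 10 genes changed direction under the other alternatives that gave a fold. A background that also held olfactory receptor pseudogenes, an alternative chosen after seeing the data, or a 99th percentile background left INSR and IGFBP4 undetected on either array, leaving out suffixed probe sets left IGF2R so, and the most different probe set of IGFBP7 was also under background on both arrays. Over the 10 genes the median log2 fold ran from 0.11 to 0.30 under the alternatives run. The low signals of INSR and IGFBP4 limit what can be said of them.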

Other observations

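Further down the pathway stood the genes of TSC, mTOR and S6K. Among the 18 detected, 1 was higher past 1.5-fold, 2 were lower and 15 lay within it, near the 7.99% and 11.2% of all genes, with a median log2 fold of -0.13. MTOR, the kinase itself, read 306 on the array labelled HCC4006ER and 136 on the array labelled HCC4006 and was 2.26-fold higher in 1 of 2 probe sets, the other being under background on both arrays. DDIT4, a stress-induced inhibitor of mTOR, read 2269 on the array labelled HCC4006ER and 4941 on the array labelled HCC4006 and was 2.18-fold lower, and TSC2 was 1.62-fold lower.

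Genes that FOXO factors are known to activate, listed because insulin and IGF signaling restrains FOXO, went both ways. Among the 16 detected, 3 exceeded 1.5-fold upward and 3 downward, beside 7.99% and 11.2% of all genes, with a median log2 fold of 0.05. CITED2, a transcriptional coregulator, was 1.86-fold higher and GADD45A, a stress response gene, was 1.56-fold higher. SESN3, a sestrin that restrains mTOR, read 18.9 on the array labelled HCC4006ER, under background, and 189 on the array labelled HCC4006 and was at least 2.06-fold lower. All other SESN3 probe sets were under background on both arrays. CAT, which encodes catalase, read 7934 on the array labelled HCC4006ER and 15432 on the array labelled HCC4006 and was 1.95-fold lower.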
